A study of Mus musculus with 24 samples.

Results

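Laser burns were applied to the eyes of Ceacam1-/- mice, and the choroid of these mice was compared with that of Ceacam1-/- mice without laser by RNA sequencing. All libraries whose labels give the knockout genotype were used, 7 with laser (libraries 4, 5, 6, 7, 14, 15 and 18) and 4 without (libraries 23, 24, 25 and 28), 11 of the 24 libraries of the series. The other 13 libraries came from wild type mice, 9 with laser and 4 without, and they served for the comparison of genotypes. Mice of both Ceacam1-/- groups were homozygous for a deletion of exons 1 and 2 of Ceacam1 on the C57BL/6J background, the wild type mice of the study were littermates, and the study used mice of both sexes, 6 to 8 weeks old unless stated otherwise. In the laser groups a frequency-doubled Nd:YAG laser (150 mW, 100 ms, spot of 200 µm) set 6 burns per eye under ketamine and xylazine anaesthesia, with the aim of inducing choroidal neovascularization. The time between laser and dissection, and whether a library is an eye or a mouse, are not given in the sources used here, so the p-values measure the spread between these libraries. Library numbers run lower in the laser groups than in the groups without laser, and an effect of processing order cannot be told apart from that of laser. The values are normalized counts, that is estimated reads scaled by the size of the library and by the mean length of the gene's transcripts. They summed to between 23704346 and 25940731 (median 25282017) in the laser libraries and to between 23819561 and 35094410 (median 26530696) in those without laser.

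CEACAM1 is an adhesion receptor of endothelial, epithelial and immune cells. The choroid is the vascular and pigmented layer behind the retina, and a laser burn through the retinal pigment epithelium opens Bruch's membrane, the sheet between that epithelium and the choroidal capillaries. Such a burn is known to draw monocytes and macrophages to the lesion, and vessels and a fibrous scar grow there.

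Ceacam1 (ENSMUSG00000074272, chromosome 7 from 25161128 to 25177257 on GRCm39) was listed in every Ceacam1-/- library. Its normalized count was 405, 505, 508 and 1171 in libraries 23, 24, 25 and 28 and between 67.8 and 905 (median 335) with laser. The groups overlapped, and the log2 fold change of Ceacam1 with laser was -1.03 ± 0.64 (SE, adjusted p = 0.383), where SE is the standard error and p comes from limma. In wild type choroid Ceacam1 was between 958 and 5027 without laser and between 774 and 8367 with laser. Of the 11 Ceacam1-/- libraries, 15 and 28 alone reached this range (905 and 1171), and both were rich in surface epithelium genes as described next. The values are given per gene, so that reads of exons outside the deletion count towards Ceacam1, and it is no test of the deletion. Ceacam2, a close paralog of Ceacam1 whose reads may be shared with it, was listed at 0 in 4 of the 7 laser libraries and at no more than 23.9 in the others, against 29.4, 11.3, 22.1 and 74.9 without laser (log2 fold change -3.40 ± 1.02 SE, adjusted p = 0.0626).

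Genes of choroidal cells were found in every library. None of the 16 endothelial and none of the 11 melanin synthesis genes listed was at 0 in any of the 11 libraries. Genes of neighbouring tissues stood high in a few libraries. The summed level of 20 rod photoreceptor genes was 1408695, 806037, 1447303 and 812538 in libraries 14, 15, 18 and 23, and between 17619 and 217769 in the other 7. The summed level of 15 surface epithelium genes, mostly keratins, was 650679 and 641083 in libraries 15 and 28 and between 9125 and 33827 elsewhere. The 26 genes of the muscle sarcomere and of excitation-contraction coupling summed to 1511845, 2413811 and 1052303 in libraries 24, 25 and 28 without laser and to at most 517406 in all others. Library 23, without laser, also held the highest level of nerve and myelin genes (597944, of which Mbp made 62.8%). Rod genes stood high in 3 laser libraries and 1 library without laser, and sarcomere genes in 3 of the 4 libraries without laser. Because the tissue is bulk, fewer cells of a type and less RNA per cell cannot be told apart in any result.

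**Figure D1:**
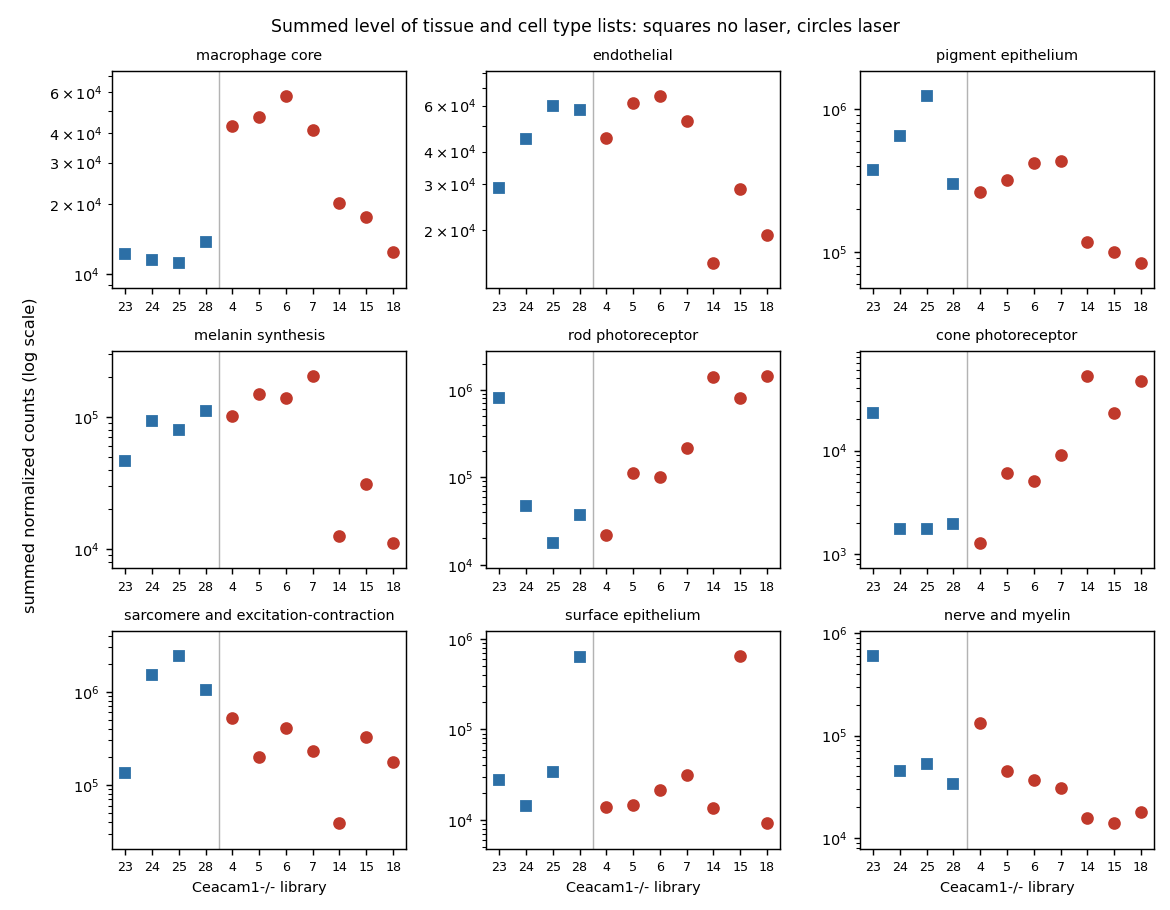
Summed normalized counts (log scale) of 9 lists of cell type genes in each Ceacam1-/- library, with squares for the 4 libraries without laser and circles for the 7 with laser. Rod and cone genes are high in libraries 14, 15, 18 and 23, sarcomere genes in 24, 25 and 28, and surface epithelium genes in 15 and 28.

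With laser, genes of macrophages (11 of 18), CC chemokines that attract leukocytes (9 of 14) and matrix metalloproteinases (6 of 12) rose, against 2% of all genes tested. Grb14, an adaptor of the insulin receptor, and Tppp3, a tubulin-binding protein, fell. Of 20299 genes tested, 730 (3.6%) passed an adjusted p of 0.05, 406 of them higher with laser (2%) and 324 lower (1.6%), from limma with Benjamini-Hochberg adjustment in a model of all 24 libraries. The median log2 fold change of all genes tested was 0.02. The absolute log2 fold change had a median of 1.87 among the genes that rose and of 1.54 among those that fell. Protein-coding genes made 391 of the 406 and 267 of the 324, and long non-coding RNAs 10 and 47. The 7 laser libraries lay above all 4 others in 233 genes (1.15% of those tested) and below them in 192 (0.946%), of which 187 and 78 also passed the test. When the model held only the 11 Ceacam1-/- libraries, 38 genes passed (0.187%), 36 higher (0.177%) and 2 lower (0.00985%), while 2698 had an unadjusted p under 0.05. The other calls rest on a spread that was estimated together with the wild type libraries. In the model of 11 libraries 0 of the 18 macrophage genes, 2 of the 14 CC chemokines and 3 of the 12 metalloproteinases passed. In the model of 24 libraries 4025 genes (19.8%) had an unadjusted p under 0.05. Fold changes are given as the difference of mean log2(normalized count + 1), which understates the change of genes of low level and, for genes listed at 0 in most libraries without laser, depends on the 1 added. Where a gene is said to rise or fall by a value, the value is on this scale. Sirpb1c, Madcam1, F7, F10, Clec4e, Mmp10 and Trem1, among others, reached the minimum mean of 10 only through the laser libraries. Their calls and lack of overlap therefore rest on a filter that they passed through the group where they were high.

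The gene of lowest p was Sirpb1c (ENSMUSG00000074677, chromosome 3), a member of the SIRP-beta family of activating receptors of myeloid cells. Sirpb1c was at 0, 1.49, 0 and 7.40 in libraries 23, 24, 25 and 28 and between 34.5 and 206 (median 147) in the laser libraries. All 7 laser libraries lay above the other 4, and the lowest of them were the rod-rich libraries 15 and 18. The log2 fold change was 5.66 ± 0.55 (SE, adjusted p = 7.55e-06) and the two-sided exact permutation test over 330 splits gave p = 0.00303, the smallest it can give. Because Sirpb1c was picked from these same values, with groups that do not overlap, the permutation p adds no independent support. Sirpb1c has close paralogs, among them Sirpb1b, and reads may be split between them. Madcam1 (ENSMUSG00000020310, chromosome 10), the mucosal addressin that binds the alpha4beta7 integrin of leukocytes, was at 2.21, 1.36, 3.94 and 1.64 without laser and between 17.9 and 82.5 (median 35.1) with laser, again without overlap (log2 fold change 3.65 ± 0.42 SE, adjusted p = 3.46e-05). Its level was low in all libraries. Serpina3n (chromosome 12), an inhibitor of leukocyte serine proteases and an acute-phase gene, was at 1277, 524, 332 and 339 without laser and between 2706 and 11229 (median 5165) with laser (log2 fold change 3.52 ± 0.40 SE, adjusted p = 3.46e-05). The value of 1277 belonged to library 23, which was also rich in rod and myelin genes, and it stayed below every laser library. Timp1 (chromosome X), a secreted inhibitor of matrix metalloproteinases, was at 93.1, 225, 210.2 and 239 without laser and between 1887 and 6013 (median 4269) with laser (log2 fold change 4.23 ± 0.43 SE, adjusted p = 7.63e-06). In Timp1 the 4 laser libraries with few rod transcripts were between 4269 and 6013 and the 3 rod-rich ones between 1887 and 2097, all above the libraries without laser. All 4 genes passed under each alternative setting in which they were tested, the model of only the 11 libraries included.

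**Figure D2:**
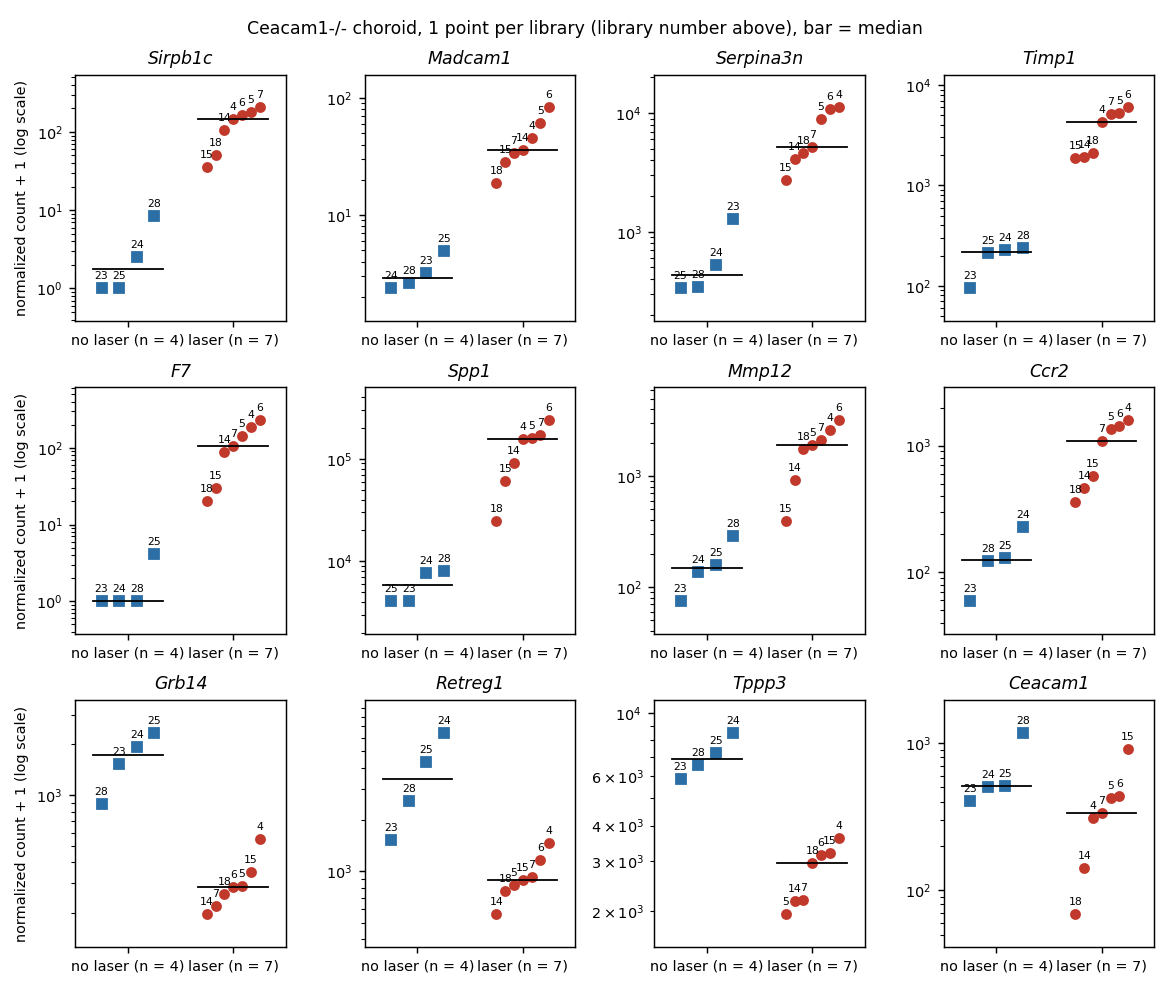
Normalized count plus 1 (log scale) of 12 genes in each Ceacam1-/- library, numbered, with squares for no laser, circles for laser and bars for the group medians. The laser libraries lie above the others in the first 8 genes and below them in Grb14, Retreg1 and Tppp3, and the groups overlap in Ceacam1.

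Of 12 matrix metalloproteinases tested, 6 rose and 0 fell (median log2 fold change 2.29). Mmp12, the macrophage elastase, was at 73.3, 137, 156 and 286 without laser and between 396 and 3200 (median 1890) with laser (log2 fold change 3.40 ± 0.45 SE, adjusted p = 0.000147). Mmp9, a gelatinase of leukocytes, was at 152, 59.1, 12.5 and 63.9 and between 319.7 and 1168 (median 818) (log2 fold change 3.73 ± 0.60 SE, adjusted p = 0.00115). Neither gene overlapped between groups. Mmp10, a stromelysin, was listed at 0 in all 4 libraries without laser and between 7.99 and 48.9 (median 32.6) in those with laser (adjusted p = 0.000327 from limma). Mmp10 reached the expression filter through the laser libraries alone. The collagenases Mmp8 and Mmp13 and the stromelysin Mmp3 also rose, by 3.71, 4.60 and 3.27 on the log2 scale. Mmp2, Mmp11, Mmp14, Mmp15, Mmp19 and Mmp23 did not pass. Without the 4 rod-rich libraries, 10 of the 12 rose, in a model in which 7.93% of all genes did. The AP-1 motif, bound by Fos and Jun proteins and long known from promoters of this family, was looked for in the 250 bases before the start of each gene. It was found in 5 of the 6 genes that rose and in 1 of the 6 that did not pass. The 100 bases before the start of the 6 genes that rose are shown 5′ to 3′ on the strand of the gene, with the AP-1 motif TGANTCA in capitals. The starts were taken from GENCODE vM39 and the bases from the GRCm39 genome. The windows lie at chr9:7445722-7445821 for Mmp3, chr9:7558357-7558456 for Mmp8, chr2:164790039-164790138 for Mmp9, chr9:7502253-7502352 for Mmp10, chr9:7347274-7347373 for Mmp12 and chr9:7272414-7272513 for Mmp13, all on the plus strand.
Mmp3: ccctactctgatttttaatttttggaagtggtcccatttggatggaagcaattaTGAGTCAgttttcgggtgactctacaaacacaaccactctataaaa
Mmp8: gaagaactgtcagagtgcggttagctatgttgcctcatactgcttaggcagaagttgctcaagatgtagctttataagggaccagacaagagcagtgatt
Mmp9: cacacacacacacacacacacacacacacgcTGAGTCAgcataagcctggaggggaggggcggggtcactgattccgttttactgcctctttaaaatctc
Mmp10: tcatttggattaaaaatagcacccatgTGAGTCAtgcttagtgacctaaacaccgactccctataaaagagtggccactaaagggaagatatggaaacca
Mmp12: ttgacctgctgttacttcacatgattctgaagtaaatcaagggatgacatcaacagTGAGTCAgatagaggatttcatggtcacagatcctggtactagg
Mmp13: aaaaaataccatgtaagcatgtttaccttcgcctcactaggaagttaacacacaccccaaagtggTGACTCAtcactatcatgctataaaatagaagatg
The motif began 46, 69, 73, 44 and 35 bases before the start of Mmp3, Mmp9, Mmp10, Mmp12 and Mmp13, and Mmp8 held none in 250 bases. Mmp19, which did not pass, held it too. Mmp3, Mmp8, Mmp10, Mmp12 and Mmp13 are neighbours in a cluster on chromosome 9, and Mmp9 is on chromosome 2. Among the promoters of all 15820 protein-coding genes tested, 4.98% held TGANTCA on either strand, against 8.7% of the 391 genes that rose and 5.62% of the 267 that fell. The PU.1 motif GAGGAAGT, of a factor of the myeloid lineage, was in 2.05% of all, 5.88% of the genes that rose and 1.5% of those that fell. The STAT motif TTCNNNGAA was in 6.64%, 9.97% and 4.12%, and the MEF2 motif, of a factor of muscle genes, in 3.02%, 2.56% and 6.37%. These are matches of letters in a window of 250 bases, not binding sites.

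The other matrix genes moved less evenly. Among the inhibitors of metalloproteinases, Timp1 rose, Timp4 fell (-2.38 ± 0.53 SE, adjusted p = 0.0147, log2 scale) and Timp2 and Timp3 did not pass. With the sarcomere level as a covariate Timp4 was at -1.35 and did not pass (adjusted p = 0.199 from limma), nor did it with the pigment epithelium level (-1.64, adjusted p = 0.0952 from limma). Of 18 matricellular and provisional matrix genes, 5 rose and 0 fell (median 1.23). Spp1, osteopontin, which macrophages of lesions make, was at 4078, 7729, 4049 and 7921 without laser and between 24734 and 239455 (median 154923) with laser (log2 fold change 4.21 ± 0.49 SE, adjusted p = 3.46e-05). All 7 laser libraries exceeded the other 4 in Spp1. Tnc, tenascin C, was at 301, 491, 171 and 509.6 and between 1057 and 5045 (median 3302), and the groups did not overlap (log2 fold change 2.84 ± 0.45 SE, adjusted p = 0.00103). Ccn4, Fn1 (fibronectin) and Lum (lumican) rose by 1.23, 1.74 and 2.11. Lox, the enzyme that crosslinks collagen, rose by 2.65, 1 of 13 crosslinking and folding genes to pass, and overlapped between groups. Of the 13, 10 rose without the 4 rod-rich libraries, 7 with the pigment epithelium level as a covariate and 3 with the rod level. Of all genes 7.93%, 4.2% and 3.63% rose in these models. Of 17 fibrillar and basement membrane collagens, 0 passed (5 at an unadjusted p under 0.05, against 19.8% of all genes), with 16 above 0 (median 0.80). Col3a1 had a log2 fold change of 1.91 ± 0.59 (SE, adjusted p = 0.0724). In libraries 4 to 7 Col3a1 was between 70260 and 83492, whereas in the rod-rich libraries 14, 15 and 18 it was between 7604 and 14500, within the range of the libraries without laser (4345, 17427, 6884 and 11654). Without the 4 rod-rich libraries 12 of the 17 collagens rose (7.93% of all genes), and 11 did with the rod level as a covariate (3.63% of all genes). The part of retinal admixture in this difference was not tested. Adam8, a protease of myeloid cells, and Adamts5, an aggrecanase, rose among 15 ADAM and ADAMTS genes (2.05 and 0.79), and 2 of 18 genes of TGF-beta signalling rose, with 2.17 for Ltbp2. Adamts5 passed in 11 of 28 alternative settings and did not pass with the sarcomere or the pigment epithelium level as a covariate (0.82 and 0.53, adjusted p = 0.114 and 0.211 from limma).

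**Figure D3:**
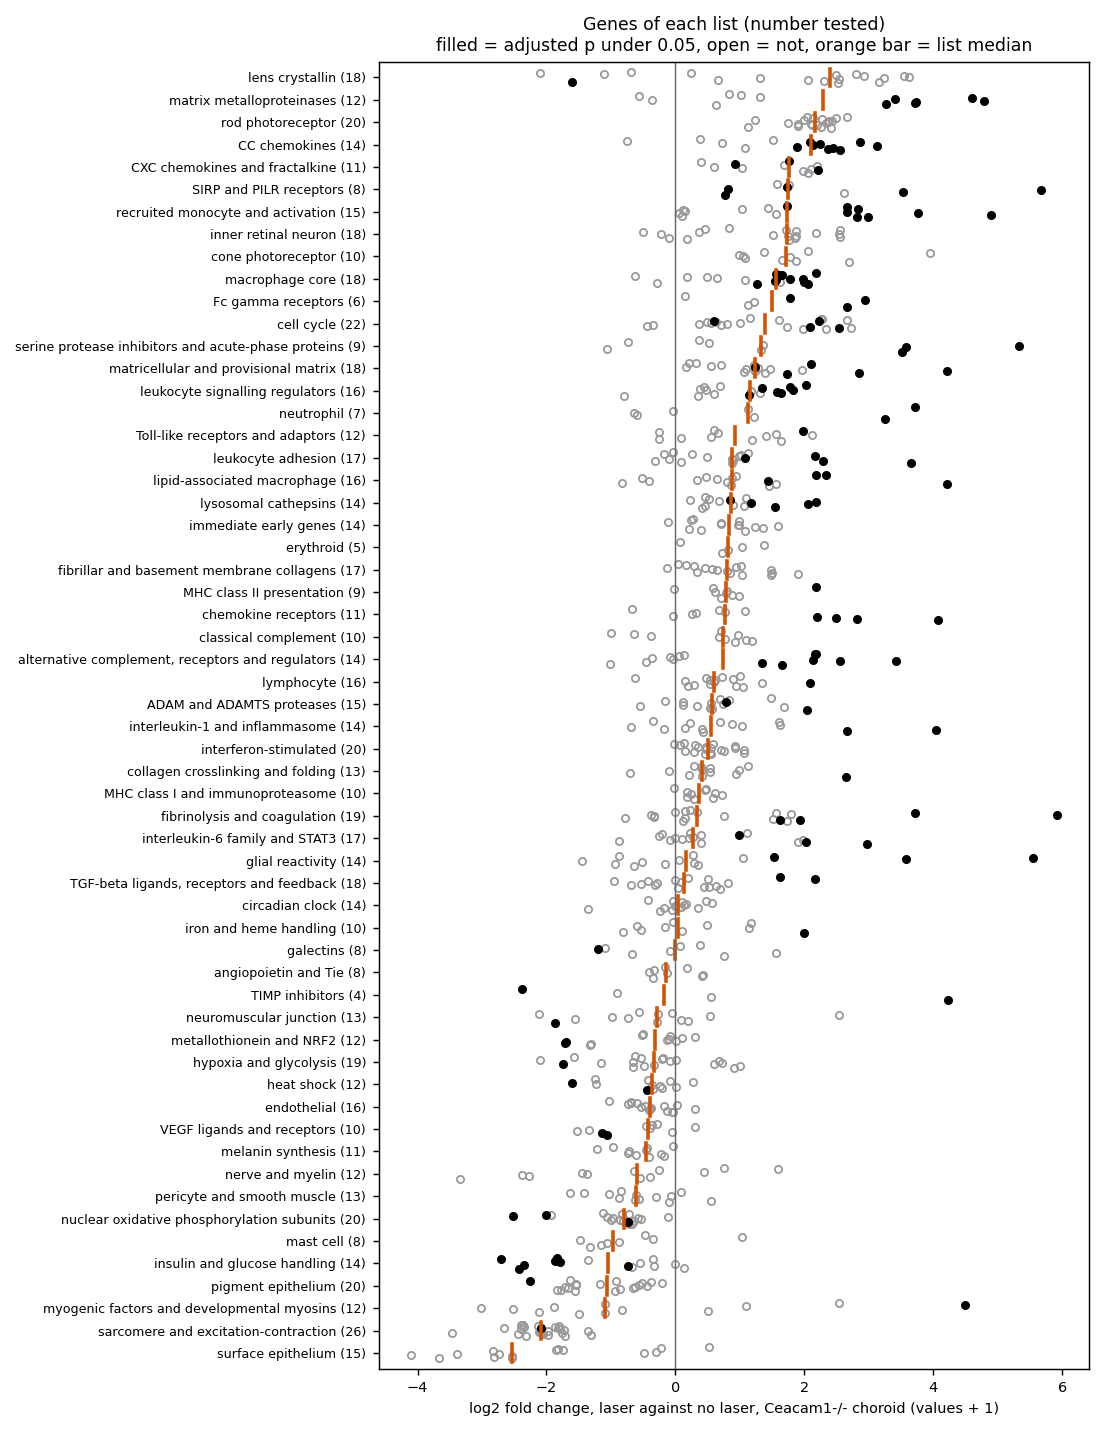
Log2 fold change with laser in Ceacam1-/- choroid of each tested gene of 58 lists, ordered by the list median (orange bar), with filled points for an adjusted p under 0.05. Metalloproteinases, CC chemokines and monocyte and macrophage genes hold many filled points on the right, and insulin and glucose handling on the left, while the rod, lens, sarcomere and surface epithelium lists lie far from 0 with at most 1 filled point each.

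Genes of clotting and of the acute phase were among those of lowest p. F7, the clotting factor that starts the extrinsic pathway, was at 0, 0, 3.10 and 0 without laser and between 19.5 and 229 (median 106) with laser (log2 fold change 5.92 ± 0.63 SE, adjusted p = 1.54e-05). F10, its substrate, was at 4.36, 9.21, 5.76 and 3.84 and between 40.1 and 177 (median 98.7) (log2 fold change 3.72 ± 0.45 SE, adjusted p = 5.82e-05). Plaur, the urokinase receptor, rose by 1.94, and of 19 genes of coagulation and fibrinolysis tested 4 rose and 0 fell. Of 24 acute-phase genes listed only 9 reached the expression filter, and 3 of them rose, Serpina3n, Saa3 and Lcn2. Saa3, a serum amyloid A made by macrophages and epithelia, was at 0, 0, 1.78 and 14.5 without laser and between 47.4 and 310.4 (median 106) with laser (log2 fold change 5.33 ± 0.73 SE, adjusted p = 0.000223). Lcn2, lipocalin 2, which binds bacterial siderophores, was at 40.4, 7.91, 20.2 and 109 and between 179 and 1375 (median 212) (log2 fold change 3.58 ± 0.62 SE, adjusted p = 0.0023). The highest value of both genes was in the rod-rich library 18 (310.4 and 1375). Slpi, an inhibitor of leukocyte elastase, was at 4.04, 13.4, 3.81 and 45.8 without laser and between 72.9 and 290.1 (median 152) with laser (log2 fold change 3.71 ± 0.46 SE, adjusted p = 8.67e-05). The groups did not overlap in F7, F10, Saa3, Lcn2 or Slpi.

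Of 18 core macrophage genes 11 rose and 0 fell (median 1.56), and 4 of these 18 did not overlap between groups. Their summed level was 12211, 11527, 11166 and 13696 without laser, 43167, 46990, 57899 and 41178 in laser libraries 4 to 7 and 20188, 17505 and 12425 in laser libraries 14, 15 and 18. The last 3 values were much closer to those without laser, and library 18 lay among them. Ctss, the cathepsin of antigen-presenting cells and the most abundant gene of the list, rose by 2.17. Adgre1 (F4/80), Cd68, Aif1 (IBA1) and Cd14 rose by 1.99, 2.05, 1.27 and 1.97. Genes of recruited and activated monocytes rose in 8 of 15 (median 1.74). Chil3, a chitinase-like protein of activated myeloid cells, was at 7.08, 12.6, 0 and 3.72 without laser and between 41.4 and 317 (median 202) with laser (log2 fold change 4.90 ± 0.63 SE, adjusted p = 0.00012). Ccr2, the receptor that brings monocytes out of the bone marrow, was at 58.0, 227, 129 and 121 and between 359.9 and 1593 (median 1084) (log2 fold change 2.81 ± 0.40 SE, adjusted p = 0.000326). The groups overlapped neither in Chil3 nor in Ccr2. Ly6c2, of inflammatory monocytes, and Msr1, a scavenger receptor, rose by 2.99 and 2.84. Of 16 lipid-associated macrophage genes 4 rose, Spp1, Fabp5, Itgax and Clec7a, with 2.34 for Clec7a, a receptor of fungal glucans. Of 8 SIRP and PILR receptors and ligands 5 rose, Sirpb1c and Sirpb1b by 5.66 and 3.53, Pilra by 1.73, and Sirpa and its ligand Cd47 by 0.76 and 0.81. Clec4e (Mincle), a receptor of damaged cells and mycobacterial lipid, was at 0, 9.45, 0 and 0 without laser and between 24.9 and 233 (median 78.7) with laser (log2 fold change 5.68 ± 0.71 SE, adjusted p = 9.73e-05). Trem1, an amplifier of myeloid activation, was listed at 0 in all 4 libraries without laser and between 2.99 and 40.2 (median 14.1) with laser (adjusted p = 0.00368 from limma). All 7 laser libraries exceeded the other 4 in Clec4e and in Trem1, but both genes reached the expression filter through the laser libraries alone.

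Most CC chemokines rose, and genes of the interferon response did not pass. Of 14 CC chemokines 9 rose and 0 fell (median 2.11). Ccl7, a ligand of Ccr2, was at 44.5, 72.9, 60.6 and 36.2 without laser and between 171 and 1157 (median 402) with laser (log2 fold change 3.12 ± 0.46 SE, adjusted p = 0.000388). Ccl2, the main ligand of Ccr2, was at 58.4, 121, 97.0 and 71.1 and between 286 and 1012 (median 464) (log2 fold change 2.56 ± 0.42 SE, adjusted p = 0.00129). Neither overlapped between groups, and the lowest laser values of Ccl7 and of Ccl2 came from the rod-rich libraries. Ccl17, Ccl3, Ccl4, Ccl8, Ccl9, Ccl12 and Ccl6 rose by 2.87, 2.37, 2.44, 2.13, 2.24, 2.09 and 1.89. Of 11 CXC chemokines and fractalkine 3 rose, Cxcl5 by 2.22, Pf4 by 1.77 and Cxcl16 by 0.92. Ccr1, a receptor of Ccl6, Ccl7 and Ccl9, was at 29.2, 59.0, 2.75 and 23.7 without laser and between 110.4 and 682 (median 479) with laser (log2 fold change 4.07 ± 0.54 SE, adjusted p = 0.000167). In all 4 of 11 receptors tested rose, with Ccr2 and Ccr7 among them. Among 17 genes of leukocyte adhesion Madcam1, Sele (E-selectin), Itgb2 and Itga4 rose, the last 3 by 2.29, 2.16 and 1.08. Itga4 was between 817 and 1459 in the rod-rich laser libraries, between 528 and 742 in the other 4 laser libraries and at 552, 494, 240.4 and 272 without laser, and with the sarcomere level as a covariate it did not pass (0.43, adjusted p = 0.452 from limma). Il1b and its natural antagonist Il1rn rose by 2.66 and 4.04, the only 2 of 14 genes of the interleukin-1 list. Library 28 without laser held 1102 of Il1rn, above 3 of the 7 laser libraries, while the other 3 libraries without laser held between 11.96 and 39.6. Il6 rose by 2.97, Lif by 2.02 and Socs3, the feedback inhibitor of their pathway, by 0.99, 3 of 17 genes. With the sarcomere level as a covariate they were at 3.005, 1.99 and 1.07 and did not pass (adjusted p = 0.0547, 0.131 and 0.0728 from limma). With the pigment epithelium level Il6 and Socs3 passed and Lif did not (1.90, adjusted p = 0.0937 from limma). Lif was at 114 in library 28 without laser, within the range of the laser libraries (38.9 to 153.5). Of 20 interferon-stimulated genes and of 10 genes of MHC class I presentation 0 passed (5 and 1 at an unadjusted p under 0.05, against 19.8% of all genes), with medians of 0.51 and 0.37. Of 9 genes of MHC class II presentation Ctss passed, and of 12 Toll-like receptors and adaptors Cd14. When the rod-rich libraries were left out, 5 of the 9 and 6 of the 12 rose, and 6 and 4 did with the rod level as a covariate, against 7.93% and 3.63% of all genes.

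Receptors and effectors of phagocytes rose in part. Of 14 genes of the alternative complement pathway, complement receptors and regulators 7 rose, with C3ar1 (receptor of C3a) by 2.55, C5ar1 (receptor of C5a) by 2.13 and Cfb (factor B) by 1.66. Of 10 genes of the classical pathway 0 passed (5 at an unadjusted p under 0.05, against 19.8% of all genes). C1qb was between 7290 and 9149 in libraries 4 to 7, between 1596 and 3357 in libraries 14, 15 and 18 and at 2057, 1962, 1856 and 2410 without laser (log2 fold change 1.196 ± 0.37 SE, adjusted p = 0.0724). Without the 4 rod-rich libraries 6 of the 10 rose, against 7.93% of all genes. Of 6 Fc gamma receptor genes 3 rose, Fcgr4 by 2.94, Fcgr1 by 2.67 and the shared chain Fcer1g by 1.77. Of 14 lysosomal cathepsins and related proteases 5 rose (median 0.87), among them Ctsb by 1.55 and Ctsl by 1.18, and without the 4 rod-rich libraries all 14 rose, against the same 7.93%. Hmox1, which breaks down heme, was at 188, 316, 292 and 354 without laser and between 442 and 1511 (median 1382) with laser (log2 fold change 2.00 ± 0.33 SE, adjusted p = 0.00146), 1 of 10 genes of iron and heme handling to pass. Among 16 signalling genes of leukocytes 7 rose, such as Coro1a by 1.78 and Vav1 by 1.63.

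Genes of other blood cells gave few calls. Of 12 neutrophil genes 7 were tested and 2 rose, S100a8 by 3.25 and Mmp8 by 3.71. Ltf, Camp and Cxcr2, which neutrophils also make, had log2 fold changes of -0.59, -0.64 and -0.04 and did not pass, and 2 to 4 of the 12 genes were listed at 0 in each library. Of 16 lymphocyte genes tested 1 rose, Trbc2 of the T cell receptor (log2 fold change 2.08 ± 0.58 SE, adjusted p = 0.0468), and of 8 mast cell genes and 5 erythroid genes 0 passed (1 and 0 at an unadjusted p under 0.05). Of 22 cell cycle genes 4 rose, Ccnb2, Ccne1, Rrm2 and Pcna, by 2.54, 2.09, 2.23 and 0.60. In Ccnb2 library 28 without laser stood at 585 and the other 3 libraries without laser between 18.2 and 39.0, against values between 178 and 751 (median 425) with laser. Library 28 was rich in surface epithelium genes, and when libraries 15 and 28 were left out, 15 of the 22 cell cycle genes rose, against 2.5% of all genes. With the pigment epithelium level as a covariate 0 of the 22 passed, against 4.2% of all genes called higher there, with 2.51 for Ccnb2 (adjusted p = 0.0841 from limma). Ccne1 and Pcna did not pass with the sarcomere level, at log2 fold changes of 1.80 and 0.58 (adjusted p = 0.129 and 0.0676 from limma). The part of the surface epithelium in these differences was not tested.

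No gene of the endothelial list passed the test, while Sele and Madcam1, which rose, were counted under leukocyte adhesion. Of 16 endothelial genes 0 passed and 0 had an unadjusted p under 0.05 (median -0.40), and 14 were below 0. They summed to between 44962 and 65394 in laser libraries 4 to 7 and to between 14959 and 28850 in the rod-rich laser libraries. Without laser the sum was between 28931 and 59627. Pecam1, the adhesion molecule CD31, had 2202 ± 970.2 (SD, n = 7) normalized counts with laser, 2103 ± 567 (SD, n = 4) without and a log2 fold change of -0.04 ± 0.29 (SE, adjusted p = 0.946). Cdh5, VE-cadherin, had a log2 fold change of -0.05 ± 0.36 (SE, adjusted p = 0.951). Kdr, the main VEGF receptor VEGFR2, had 3522 ± 521 (SD, n = 7) normalized counts with laser, 2834 ± 279 (SD, n = 4) without and a log2 fold change of 0.30 ± 0.20 (SE, adjusted p = 0.412), which was above 0 but did not pass. Of 10 VEGF ligands and receptors Vegfa and Vegfb fell. Vegfa was at 5630, 11443, 8319 and 4942 without laser and between 2589 and 4789 (median 3267) with laser (log2 fold change -1.06 ± 0.25 SE, adjusted p = 0.0182). All 7 laser libraries lay below the other 4, the nearest being library 7 with 4789 and library 28 with 4942. Vegfb was at 1759, 3548, 7046 and 3375 and between 1214 and 2082 (median 1608), and the groups overlapped (log2 fold change -1.14 ± 0.25 SE, adjusted p = 0.0143). With the sarcomere level as a covariate neither passed, with log2 fold changes of -0.97 for Vegfa (adjusted p = 0.097 from limma) and -0.54 for Vegfb (adjusted p = 0.2 from limma). With the pigment epithelium level as a covariate they were at -0.62 and -0.71 and did not pass (adjusted p = 0.132 and 0.101 from limma). Of 8 angiopoietin and Tie genes and of 13 pericyte and smooth muscle genes 0 passed (0 and 2 at an unadjusted p under 0.05), with medians of -0.14 and -0.60. The angiopoietin and Tie genes summed to between 15173 and 16421 in laser libraries 4 to 7, to between 3309 and 5976 in the rod-rich laser libraries and to between 7480 and 12940 without laser, and without the 4 rod-rich libraries 2 of the 8 rose, against 7.93% of all genes.

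Among the genes that fell, Grb14 had the lowest p. Grb14 (ENSMUSG00000026888, chromosome 2), an adaptor that binds the insulin receptor and restrains its kinase, was at 1534, 1924, 2342 and 886 in libraries 23, 24, 25 and 28 and between 196 and 547 (median 284) with laser. The groups did not overlap, and library 23, which was poor in sarcomere genes, held 1534, more than every laser library. The log2 fold change was -2.43 ± 0.39 (SE, adjusted p = 0.00115), and with only the 11 libraries in the model the adjusted p was 0.0187. Tppp3, a tubulin-binding protein, was at 5842, 8499, 7199 and 6540 without laser and between 1948 and 3626 (median 2945) with laser (log2 fold change -1.37 ± 0.28 SE, adjusted p = 0.00776), and it was the only other gene that fell in that model. Retreg1 (FAM134B), a receptor for autophagy of the endoplasmic reticulum, was at 1520, 6416, 4360 and 2566 and between 559 and 1450 (median 885) (log2 fold change -1.84 ± 0.32 SE, adjusted p = 0.00221). In Retreg1 the nearest values of the groups were 1520 in library 23 and 1450 in library 4, the laser library with the most sarcomere transcripts. Dok7, which activates the kinase MuSK at the neuromuscular junction, was at 310.2, 544, 1058 and 293 and between 82.6 and 222 (median 129) (log2 fold change -1.86 ± 0.33 SE, adjusted p = 0.00274). The other genes of lowest p that fell were Sec14l5 (-2.51), Limch1 (-1.05), Arc (-1.57), Adamtsl5 (-1.204), the non-coding Gm33489 (-3.25), Dtna (-1.52) and Rcan2 (-1.64), given as log2 fold changes, and the groups overlapped in none of them. With the sarcomere level as a covariate Arc, Adamtsl5, Dtna and Rcan2 were at -1.15, -0.71, -1.005 and -1.33 and did not pass (adjusted p = 0.0511, 0.0515, 0.0598 and 0.051 from limma). Sec14l5, Limch1 and Gm33489 passed there. Arc is an immediate early gene of neurons and Dtna encodes dystrobrevin of the dystrophin complex.

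Genes of insulin action and glucose use were among those that fell. Of 14 listed 7 fell and 0 rose (median -1.05), with Grb14 and Retreg1 among the 7. This list was made with earlier results known and holds 2 of the 10 falling genes of lowest p, so its count is not independent of them, and Retreg1 is not itself a gene of glucose use. With the sarcomere level as a covariate 2 of the 14 fell, Grb14 and Retreg1, against 0.143% of all genes in that model, and with only the 11 libraries 1 fell, Grb14. Slc2a4, the insulin-regulated glucose transporter GLUT4 of muscle and fat, was at 541, 4755, 4779 and 2363 without laser and between 69.1 and 1401 (median 505) with laser (log2 fold change -2.35 ± 0.58 SE, adjusted p = 0.0265). Pdk4, which holds back pyruvate oxidation, was at 416, 3670, 3727 and 2085 and between 78.1 and 442 (median 396) (log2 fold change -2.70 ± 0.65 SE, adjusted p = 0.023). In both genes library 23 lay among the laser libraries, and libraries 24, 25 and 28 lay above them all. Gys1 (glycogen synthase), Pygm (glycogen phosphorylase of muscle) and Irs2 (insulin receptor substrate 2) fell, with log2 fold changes of -1.86, -1.78 and -0.73. Pfkm, phosphofructokinase of muscle, had a log2 fold change of -1.75 ± 0.45 (SE, adjusted p = 0.0313), 1 of 19 genes of hypoxia and glycolysis to pass, and was at 4020, 30403, 25561 and 17609 without laser. Of the 19, 7 had an unadjusted p under 0.05 (19.8% of all genes), and without the 4 rod-rich libraries 8 fell, against 6.14% of all genes. The nuclear subunits of oxidative phosphorylation Cox6a2, Cox8b and Ndufs1 fell among 20, the first 2 being forms of heart and skeletal muscle (log2 fold changes -2.52, -2.003 and -0.74). With the sarcomere level as a covariate none of these 3 passed, at -0.28, -0.64 and -0.40 (adjusted p = 0.499, 0.393 and 0.395 from limma). All 20 subunits were below 0, 19 of them at an unadjusted p under 0.05, against 19.8% of all genes. Without the 4 rod-rich libraries 18 fell, against 6.14% of all genes.

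Genes of muscle mostly had log2 fold changes below 0 with laser, but few of them passed. All 26 sarcomere and excitation-contraction genes were below 0 (median -2.08), and Ryr1, the calcium release channel, alone passed (log2 fold change -2.09 ± 0.54 SE, adjusted p = 0.0345). Library 23 held a sarcomere level within the range of the laser libraries. Without the 4 rod-rich libraries, library 23 among them, 24 of the 26 fell, against 6.14% of all genes. With the sarcomere level as a covariate 398 genes rose (1.96%) and 29 fell in place of 406 and 324, and 252 and 19 of these were among the genes called without it. In that model Grb14, Tppp3 and Dok7 had log2 fold changes of -1.77, -0.97 and -1.36 (adjusted p = 0.0212, 0.0986 and 0.0446 from limma). In the same model Slc2a4, Pfkm and Ryr1 had -0.66, -0.45 and -0.42 (adjusted p = 0.319, 0.369 and 0.351 from limma). Timp1 and Serpina3n had 4.98 and 3.24 there, with adjusted p = 1.26e-06 and 0.0007 from limma. Among 12 myogenic factors and developmental myosins 1 passed, while 8 were below 0 (median -1.085). An unadjusted p under 0.05 was found in 8 of the 12, against 19.8% of all genes. Without the 4 rod-rich libraries 7 of the 12 fell and 1 rose, against 6.14% and 7.93% of all genes. Mymx (myomixer), which fuses myoblasts, rose and was at 0, 3.11, 0 and 0 without laser and between 9.72 and 80.4 (median 40.5) with laser (log2 fold change 4.49 ± 0.70 SE, adjusted p = 0.000733). The groups did not overlap in Mymx. Myod1 and Myh3, the embryonic myosin, had log2 fold changes of -1.50 and -3.02 and did not pass. Of 13 genes of the neuromuscular junction Dok7 alone passed. Of 12 nerve and myelin genes 0 passed, while 6 had an unadjusted p under 0.05, against 19.8% of all genes (median -0.60).

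**Figure D4:**
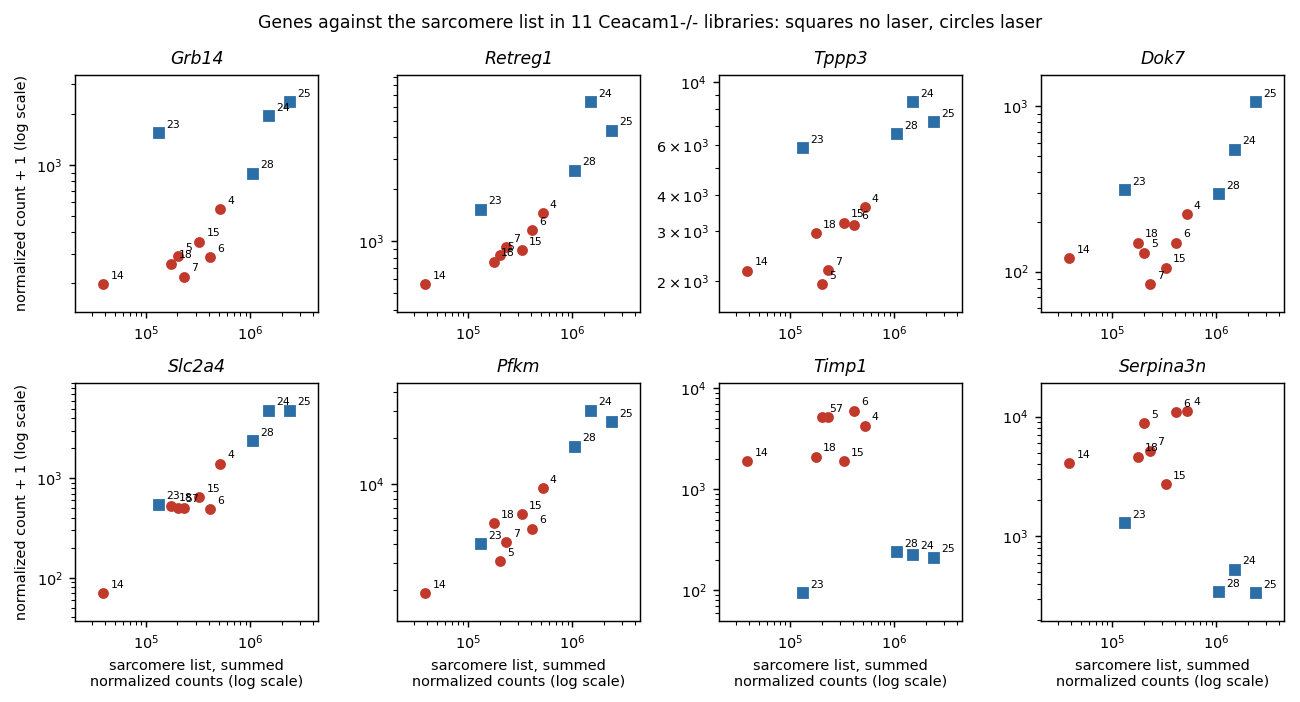
Normalized count plus 1 of 8 genes against the summed level of 26 sarcomere and excitation-contraction genes (log scales) in the 11 numbered Ceacam1-/- libraries, squares without laser and circles with laser. Slc2a4 and Pfkm run along the sarcomere level with library 23 among the laser libraries, in Grb14, Tppp3 and Dok7 library 23 lies above the laser libraries, and Timp1 and Serpina3n are higher in every laser library than in library 23, the library without laser whose sarcomere level lies in the range of the laser libraries.

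Genes of the pigment epithelium and retina mostly did not pass. All 20 pigment epithelium genes were below 0 (median -1.06), 11 of them at an unadjusted p under 0.05, against 19.8% of all genes. Of the 20, 1 fell, Enpp2 (autotaxin), which was at 29680, 29928, 35844 and 9686 without laser and between 1941 and 14236 (median 6794) with laser (log2 fold change -2.25 ± 0.62 SE, adjusted p = 0.0425). Enpp2 passed in 13 of 28 alternative settings, and not with the sarcomere, rod or pigment epithelium level as a covariate. It was at -2.12 with the sarcomere level (adjusted p = 0.162 from limma) and at -0.70 with the pigment epithelium level (adjusted p = 0.333 from limma). Enpp2 is itself a gene of the pigment epithelium list, so the last setting is no independent test of it. The list summed to 373743, 642037, 1233607 and 297040 in libraries 23, 24, 25 and 28, to 263759, 319692, 419068 and 433263 in libraries 4 to 7 and to 117919, 100104 and 83417 in libraries 14, 15 and 18, with Ttr the most abundant gene. All 20 rod genes were above 0 (median 2.16) and 0 passed (1 at an unadjusted p under 0.05), with rod-rich libraries in both groups. Of 10 cone genes, 18 genes of inner retinal neurons and 11 of melanin synthesis 0 passed either (2, 1 and 1 at an unadjusted p under 0.05). Among 14 genes of glial reactivity Lcn2, Edn2 (endothelin 2) and Fgf2 rose. Fgf2 was highest in the rod-rich laser libraries 14 and 18 (2258 and 1774) and passed in 18 of 28 settings. It did not pass with the sarcomere level (0.79, adjusted p = 0.343 from limma) or the pigment epithelium level (1.07, adjusted p = 0.167 from limma) as a covariate. Edn2 was at 0, 0, 0 and 25.4 without laser and, in libraries 4, 5, 6, 7, 14, 15 and 18, at 15.8, 3.92, 27.6, 242, 1955, 175 and 768 (log2 fold change 5.55 ± 1.48 SE, adjusted p = 0.0381). The highest values of Edn2 were in the rod-rich laser libraries 14 and 18, whereas the rod-rich library 23 without laser was listed at 0, and Edn2 passed in 15 of the 28 settings. Of 18 lens crystallins 1 passed, Cryab, which fell (log2 fold change -1.60 ± 0.41 SE, adjusted p = 0.0331) and which muscle also makes. The lens list as a whole went the other way, with 14 of the 18 above 0 (median 2.40). In it 6 genes, Cryab included, had an unadjusted p under 0.05, against 19.8% of all genes. Of 15 surface epithelium genes 0 passed (0 at an unadjusted p under 0.05, median -2.54).

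Stress and timing genes showed few calls. Of 14 immediate early genes and 14 circadian clock genes 0 passed (8 and 1 at an unadjusted p under 0.05, against 19.8% of all genes), with medians of 0.84 and 0.04. Atf3 had a log2 fold change of 0.97 ± 0.30 (SE, adjusted p = 0.0696). Mt3, a metallothionein, and Nqo1, a target of NRF2, fell among 12 genes (-1.72 and -1.69), and Hsf1 and Cryab fell among 12 heat shock genes (-0.43 for Hsf1). None of these 4 passed with the sarcomere level as a covariate, at -1.37 for Mt3, -0.98 for Nqo1, -0.36 for Hsf1 and -0.65 for Cryab (adjusted p = 0.209, 0.331, 0.209 and 0.396 from limma). Lgals4 fell alone among 8 galectins (-1.20).

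The 38 genes that passed in the model of only the 11 libraries were named after their values were seen. Beside those described they include Cd53, Fgr and Plek of leukocytes, Olr1 (LOX-1), a receptor for oxidized lipoprotein, Cd300lf, a receptor of myeloid cells, and Htr2b, a serotonin receptor, which rose by 2.87, 3.21, 2.55, 4.54, 2.18 and 2.98. Prg4 (lubricin), a surface lubricant of joints, was at 111, 492.8, 191 and 260.3 without laser and between 848 and 6380 (median 3955) with laser (log2 fold change 3.62 ± 0.49 SE, adjusted p = 0.000208). Gal (galanin), a neuropeptide, was at 16.8, 34.2, 19.6 and 51.4 and between 98.3 and 316 (median 144) (log2 fold change 2.57 ± 0.63 SE, adjusted p = 0.0255). The groups overlapped in neither. Hmga2, a chromatin protein of embryonic and growing tissue, rose by 2.89, Gla, a lysosomal galactosidase, by 1.53, Steap1, a metalloreductase, by 2.37 and Btg1, an antiproliferative gene, by 1.26. Elobl, Gm5150 and Nxpe5 rose by 3.83, 4.05 and 2.82.

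The laser effect in Ceacam1-/- choroid was set against that in wild type choroid. The test of the difference, an interaction in the model of 24 libraries, called 0 of 20299 genes (0%), with 1278 at an unadjusted p under 0.05 and a lowest adjusted p of 0.639 from limma. Of the 406 genes that rose in Ceacam1-/- choroid 398 were above 0 in wild type, as 41.5% of all genes tested were, and 289 were called higher there, which is 71.2% of the Ceacam1-/- list and 35.3% of the 819 genes called higher in wild type (4.03% of all tested). Of the 324 that fell 316 were below 0 in wild type, as 58.5% of all genes were, and 43 were called lower in wild type, 13.3% of the Ceacam1-/- list and 21.5% of the 200 called lower in wild type (0.985% of all tested). No gene was called in opposite directions. Timp1 had log2 fold changes of 4.23 in Ceacam1-/- and 4.68 in wild type choroid, Serpina3n of 3.52 and 4.80, Madcam1 of 3.65 and 3.86, and Sirpb1c of 5.66 and 2.89. Sirpb1c had the largest gap of these 4 (interaction log2 difference 2.78, standard error 0.76, adjusted p = 0.639 from limma). Its wild type libraries without laser were at 24.1, 8.18, 29.0 and 18.6, above the 4 Ceacam1-/- libraries without laser, and with laser its range was 102 to 247 in wild type. The 3 genes of lowest p in the interaction were Adamts18, Trim43a and Inpp5d (SHIP1, a phosphatase of leukocytes), with log2 fold changes of 1.49, 2.29 and -0.80 in Ceacam1-/- and -2.22, -2.09 and 1.21 in wild type choroid. None of these differences passed the adjustment, so a difference between genotypes was not detectable with these libraries. The median of the rod list was 2.16 in Ceacam1-/- and -1.32 in wild type, and no rod gene passed in the interaction.

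How many genes were called depended on which libraries and covariates were used more than on scaling. With other scalings, pseudocounts or minimum means the number that rose stayed between 289 and 407 and the number that fell between 189 and 387. Without library 23 the model called 1138 higher and 1340 lower, and without library 25 it called 133 and 15. Some genes that passed as reported did so in few alternatives, such as Hsf1 in 10, Cox6a2 in 11, Rrm2, Ndufs1 and Itga4 in 12 and Ccnb2 in 15 of 28, and Sele in 12 and Trbc2 in 13 of 27. Library weights, which give less influence to libraries that vary more, led to 1840 and 1617. Genes called as reported made 375 of the 1138 and 319 of the 1340 without library 23, and 132 of the 133 and 15 of the 15 without library 25.

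**Figure D5:**
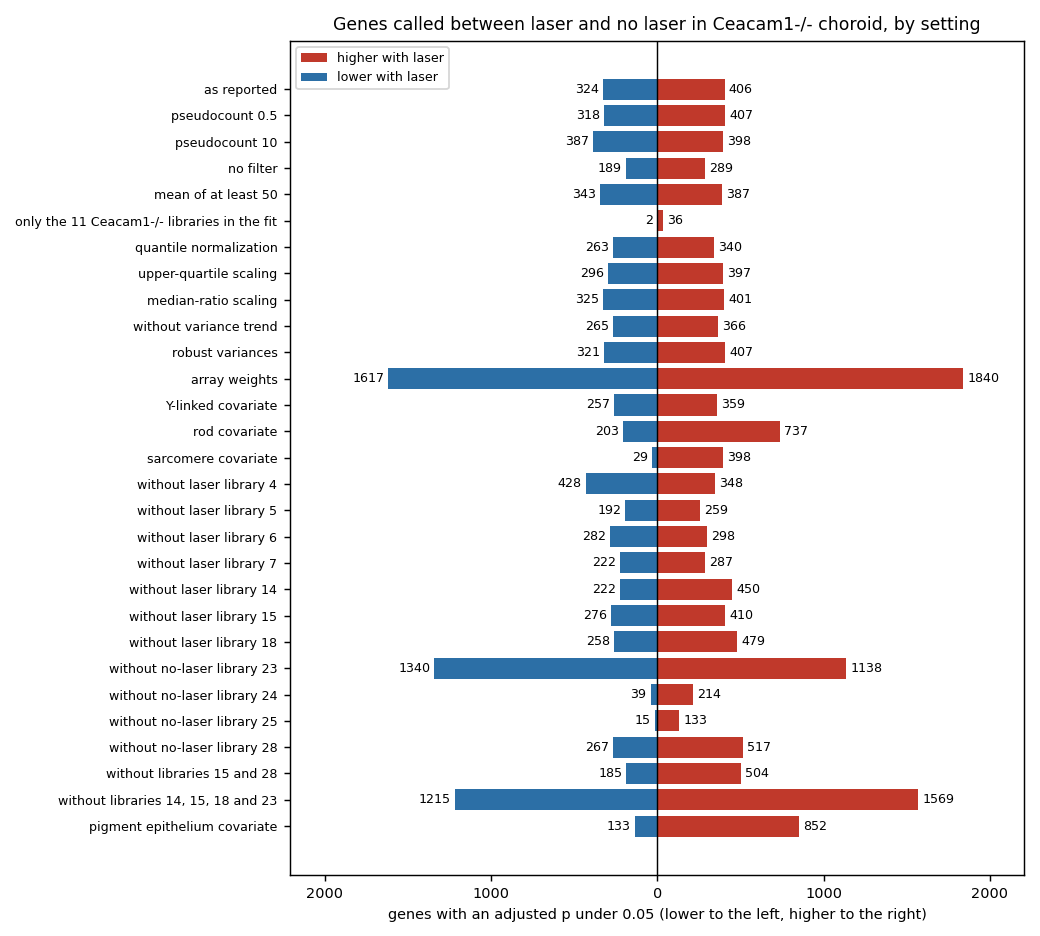
Number of genes with an adjusted p under 0.05 that were higher (right) or lower (left) with laser in Ceacam1-/- choroid under each setting of the model. The number ranges from 36 higher and 2 lower with only the 11 Ceacam1-/- libraries in the model to 1840 and 1617 with array weights.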

How the data were processed

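RNA was taken from mouse choroid, and cDNA was made with a SMART-Seq kit, which keeps no strand, from 10 ng with 8 cycles, followed by 14 library cycles. Per the labels, reads were checked with FastQC 0.11.5 and quantified with Salmon 1.10.3, and the deposited signal is normalized counts per gene made by the authors with DESeq2 1.44.0. The values are not whole reads, because a length factor of each gene and library entered the scaling, so the read depth behind a value is unknown and no count model was used. The authors' table lists 56065 genes in 24 libraries, and 99.1% of the identifiers were found in GENCODE vM39 (GRCm39). Reads of a gene and its antisense partner, or of near-identical paralogs, cannot be told apart.

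Genes with a mean of at least 10 over the 11 Ceacam1-/- libraries entered a limma fit (version 3.58.1, R 4.3.3) of log2(normalized count + 1) with a variance trend and 4 groups, followed by Benjamini-Hochberg adjustment at 0.05. Single genes were also given a two-sided exact permutation test (330 arrangements). The model was tested on simulated data. Tables were made with pandas 2.3.3 and numpy 2.4.6 in Python 3.11.15, and figures with matplotlib 3.10.9.

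The genes named are Ceacam1, Ceacam2, the 4 markers, the 10 of lowest p in each direction, the 4 of lowest p past the threshold in each of 58 lists (2 where none passed) and the 3 of lowest p in the interaction, 159 in all with those of the model of only 11 libraries. Some of them are not reported here. Other list members, and the genes of that model, were added after their values were seen. The comparison, the members and the lists were chosen with earlier results of these data known. Of 797 genes listed, 795 had 1 identifier. Promoters were the 250 bases before the start of 15820 protein-coding genes. The starts were those of the canonical transcripts in GENCODE vM39, matched by gene identifier, and the bases came from the GRCm39 genome. Alternatives changed the pseudocount, filter, scaling, variance model, covariates and libraries, and 3 of them were chosen after seeing the data, those without libraries 15 and 28, without libraries 14, 15, 18 and 23, and with the pigment epithelium level as a covariate.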

Additional observations from a re-analysis of the deposited data

Results flagged for a closer look

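In 8 of the 80 groups of values examined, a library stood apart from the rest of its group by a wide gap on the log2 scale, and chance gives about 1 in 20. Among libraries without laser, Timp1 was at 93.1 in library 23 and at 210.2 in the nearest other, F7 was at 3.10 in library 25 and listed at 0 in the others, and Clec4e was at 9.45 in library 24 and listed at 0 in the others. Library 23 also had a cone list of 23094 with the nearest at 1936, and a nerve and myelin list of 597944 with the nearest at 53245. Among libraries with laser, the surface epithelium list was at 650679 in library 15 and at 31399 in the nearest other. In library 14 the neutrophil list was at 317 with the nearest at 806, and the sarcomere list at 38741 with the nearest at 175274.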

How the results depend on the processing

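The model as reported called 730 genes (406 higher, 324 lower). Other settings gave totals of 478 with no filter (189 lower), 38 with only the 11 Ceacam1-/- libraries in the model (36 higher, 2 lower) and 3457 with array weights (1840 higher, 1617 lower). Of these totals 434, 38 and 713 were among the 730. With a covariate, 737 rose and 203 fell for the rod level, 427 were called and 29 fell for the sarcomere level, and 852 rose and 133 fell for the pigment epithelium level. The level of 4 Y-linked genes as a covariate, in place of the sex that the labels do not give, led to 616 calls (359 higher, 257 lower). Without libraries 15 and 28, 185 fell, and without libraries 14, 15, 18 and 23, 2784 were called (1569 higher, 1215 lower). Leaving out each of the 11 Ceacam1-/- libraries in turn, but no wild type library, gave between 148 and 2478 calls, between 133 and 1138 higher and between 15 and 1340 lower. The lowest values came without library 25, the highest without library 23, and calls also moved by over 1.5 times without library 24 (253 calls, 214 higher and 39 lower) and without library 5 (451 calls, 259 higher and 192 lower). Fewer libraries leave fewer residual degrees of freedom by construction, but that loss is the same whichever single library is left out. The cause of the differences in calls was not tested for any setting. The interaction called 0 genes in every setting in which it was run.

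Among the named genes, the log2 fold change had the same direction and side of the threshold in 3902 comparisons with an alternative, lost the call in 451, gained it in 66 and turned sign in 15, all in genes that did not pass. With the sarcomere level as a covariate Des was at 0.27, Mcpt4 at 0.23, Rcvrn at -0.34, Robo4 at 0.12, Tpsb2 at 0.31, Calb2 at -0.18 and Tie1 at 0.28. With the pigment epithelium level Rab27a was at 0.18, Gpr143 at 0.56, Tpsb2 at 0.044, Flt1 at 0.0063 and Tie1 at 0.47. Tie1 was at 0.24 with array weights, at 0.029 with the rod level and at 0.22 without libraries 14, 15, 18 and 23.

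No paired analysis was possible because the groups share no replicate numbers in the labels. The depth of each library in reads is unknown, and 4 libraries without laser, 1 of them rich in rod and myelin genes, limit the precision of each fold change.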
